A study of Mus musculus with 2 samples.

Results

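CCR2 and its ligands were described in mouse liver tumours as 5 genes, the chemokines Ccl2, Ccl7, Ccl12 and Ccl8 and the receptor Ccr2. They were listed by name and matched by symbol, 1 identifier each, among 55450 genes. Cells of 2 liver tumour models had been profiled by droplet-based single-cell RNA sequencing of transcript 3′ ends, with 1 library per model. In both models C57BL/6 mice had plasmids forced into the liver by hydrodynamic injection through the tail vein, and the Sleeping Beauty transposase, carried on one plasmid, inserts the oncogenes into the genome. The AKT1.MYC group received 10 μg of Akt1, 10 μg of human c-Myc and 5 μg of transposase plasmid per mouse. The NRAS.MYC.ND group received 19 μg of human N-Ras, 1 μg of human c-Myc and 2 μg of transposase plasmid per mouse. Tumours were taken 14 weeks later, digested, and enriched for live cells. The plasmid promoters, the number, sex and age of the mice per library and the meaning of ND are not given in the sources used here. Oncogene, plasmid amounts and library differ together and cannot be told apart.

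CCR2 is the receptor through which inflammatory monocytes leave the bone marrow and enter inflamed or tumour-bearing tissue. CCL2 is its best known ligand, CCL7 and CCL12 also bind it, and CCL8 is a related monocyte chemoattractant that in mice has also been described as a ligand of CCR8. In the liver, Kupffer cells, recruited macrophages, stellate cells and hepatocytes are known sources of CCL2, and monocytes that enter the tissue lose Ly6C and CCR2 as they become macrophages.

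The 4 ligand genes lie near each other on the plus strand of mouse chromosome 11 (GRCm38, GENCODE vM21), each with 3 exons: Ccl2 (ENSMUSG00000035385) at chr11:82035571-82037453, Ccl7 (ENSMUSG00000035373) at chr11:82045712-82047525, Ccl12 (ENSMUSG00000035352) at chr11:82101845-82103400 and Ccl8 (ENSMUSG00000009185) at chr11:82115185-82116799. The interval from the start of Ccl2 to the end of Ccl8 is 81229 bases and holds 5 protein-coding genes. These are the ligands and Ccl11, which lies between Ccl7 and Ccl12. Ccr2 (ENSMUSG00000049103) lies at chr9:124101950-124113557 on the plus strand. The longest identical stretch between transcripts of any pair of the 4 ligands was 23 bases, between Ccl2 and Ccl7.

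Promoters of the neighbours Ccl12 and Ccl8 are shown because these ligands differed most between the libraries in macrophages. Each runs from 250 bases before to 50 bases after the annotated start (RefSeq, GRCm38.p6, plus strand), at chr11:82101595-82101894 for Ccl12 and chr11:82114935-82115234 for Ccl8, and capitals mark the TATA box letters TATAAA.
Ccl12: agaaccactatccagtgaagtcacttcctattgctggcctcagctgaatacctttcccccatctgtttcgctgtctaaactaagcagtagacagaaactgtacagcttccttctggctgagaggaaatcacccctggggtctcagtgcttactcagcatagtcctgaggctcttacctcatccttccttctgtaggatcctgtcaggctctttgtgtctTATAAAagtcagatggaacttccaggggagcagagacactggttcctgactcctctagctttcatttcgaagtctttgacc
Ccl8: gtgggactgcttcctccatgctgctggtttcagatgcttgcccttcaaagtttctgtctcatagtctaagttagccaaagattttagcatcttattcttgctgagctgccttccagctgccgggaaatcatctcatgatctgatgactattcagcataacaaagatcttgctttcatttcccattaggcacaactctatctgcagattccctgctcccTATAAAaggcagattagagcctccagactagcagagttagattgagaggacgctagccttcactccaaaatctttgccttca
TATAAA begins 31 bases before the start in Ccl12 and 32 bases before it in Ccl8, and on either strand it is held by 13.6% of the 32851 promoters of this length. The PU.1 core GAGGAA, held by 28.3% of promoters, occurs once on the forward strand of Ccl12 and once on the reverse strand of Ccl8. The Ccr2 promoter, taken at chr9:124101933-124102232, holds neither. Most of that stretch lies inside the gene as placed above, which begins at base 124101950. Statements on the Ccr2 promoter cover this stretch only. None of the 3 promoters, Ccr2 included, held TGANTCA (AP-1, 7.81% of promoters), TTCNNNGAA (gamma-activated site, 8.30%), the interferon-stimulated response element (3.44%) or the NF-kappaB motif (4.51%), searched on both strands. No match overlapped another. Aligned over their length, the Ccl12 and Ccl8 promoters were identical in 58.0% of columns, against 50.7% for Ccl12 with Ccr2 and 48.9% for Ccl8 with Ccr2.

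The libraries held 10766 barcodes and 64516171 unique molecular identifiers (UMIs, counted molecules) in AKT1.MYC and 6312 barcodes and 42416125 UMIs in NRAS.MYC.ND. Filtering left 9398 AKT1.MYC cells (median 1987 UMIs) and 5661 NRAS.MYC.ND cells (median 4240 UMIs). The libraries shared 17 barcodes. Cells were gated into types by marker genes that included none of the 5 genes. Mononuclear phagocytes (macrophages, monocytes and Kupffer cells) were 49.3% of kept AKT1.MYC cells against 29.1% of kept NRAS.MYC.ND cells, and 11.2% of AKT1.MYC cells against 5.14% of NRAS.MYC.ND cells stayed ungated. In hepatocyte-lineage cells reads assigned to Nras stood at 61.3 CPM in AKT1.MYC against 1516 CPM in NRAS.MYC.ND, and those assigned to Akt1 at 219.7 CPM in AKT1.MYC against 49.3 CPM in NRAS.MYC.ND, so both labels match the injected oncogene. CPM here means the UMIs of a gene per 1000000 UMIs summed over the cells of a gate. UMIs of a 3′ assay are counted once per molecule and were not scaled by length, so levels of different genes also carry their capture efficiency. With 1 library per group nothing has a replicate check, no test was possible, and the 95% intervals given cover counting error only. A ratio is log2 of AKT1.MYC over NRAS.MYC.ND, and "higher" is used from 2-fold on.

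In macrophage-gated cells the ligands split between the models. Ccl12 and Ccl8 were much higher in NRAS.MYC.ND, Ccl2 and Ccl7 differed by less than 2-fold in opposite directions, and Ccr2 was higher in NRAS.MYC.ND. The macrophage gate held 4153 AKT1.MYC cells and 921 NRAS.MYC.ND cells, at medians of 1385 and 7367 UMIs. Of the 5 genes, 0 were higher in AKT1.MYC by 2-fold or more, against 20.9% of all measured genes, and 3 were higher in NRAS.MYC.ND, against 7.71% of all measured genes. The median ratio of the 5 was -1.20, against 0.20 over the 15148 genes measured there.

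**Figure D1:**
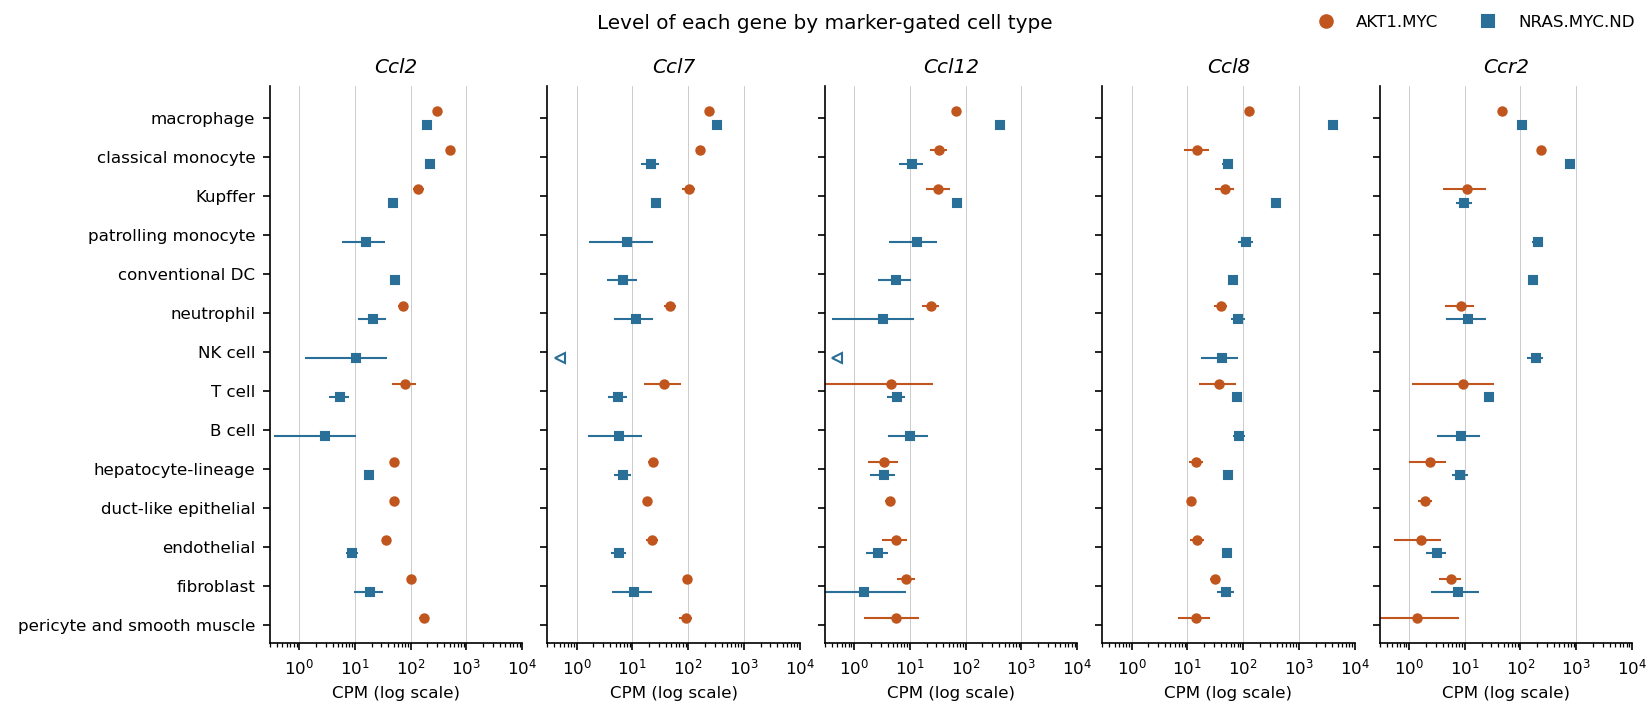
Level of each gene in CPM (horizontal log axis) in marker-gated cell types with at least 50 cells in a library, with AKT1.MYC as circles above NRAS.MYC.ND as squares. Bars are exact Poisson 95% intervals, and open triangles at the left edge are counts of 0. Ccl8 in NRAS.MYC.ND macrophages, at 4170.3 CPM, stands apart from every other point, and Ccr2 is highest in classical monocytes of both libraries.

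Ccl2 stood at 303 CPM (294 to 312) in AKT1.MYC macrophages, against 198 CPM (188 to 209) in NRAS.MYC.ND macrophages, a log2 ratio of 0.61 (0.52 to 0.70). It was highest in classical monocytes, with 516 CPM (475 to 559.8) in AKT1.MYC against 226 CPM (203 to 251.2) in NRAS.MYC.ND, a log2 ratio of 1.19. In Kupffer cells it stood at 138 CPM in AKT1.MYC against 47.9 CPM in NRAS.MYC.ND, a log2 ratio of 1.53 that fell under 2-fold, to 0.62, once the level in T and B cells of each library was subtracted as free RNA. Before that subtraction Ccl2 was thus higher in AKT1.MYC in 2 of these 3 gates and less than 2-fold apart in macrophages. In AKT1.MYC the order of levels after monocytes was unsplit phagocytes (433 CPM), macrophages, pericytes and smooth muscle (173), Kupffer cells, fibroblasts (103), T cells (79.4), neutrophils (72.1), hepatocyte-lineage cells (50.8), duct-like epithelial cells (49.6) and endothelial cells (36.6). The intervals of classical monocytes and unsplit phagocytes, a gate of phagocytes with no clear subtype, overlapped. Those of pericytes and Kupffer cells overlapped too. In NRAS.MYC.ND the intervals of monocytes and macrophages overlapped, both lay above conventional dendritic cells (DCs, 52.2 CPM) and Kupffer cells, which overlapped with each other, and all other gates of at least 50 cells were at 21.5 CPM or less.

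Outside phagocytes and pericytes, the gate levels of Ccl2 in AKT1.MYC were near or below that of T cells, which should lack it. T cells held 17 Ccl2 UMIs in 73 cells (79.4 CPM, 46.2 to 127), and their interval overlapped with that of fibroblasts (93.0 to 114). The pericyte gate, at 144 to 207 CPM, lay above it, but 44 of its 123 UMIs came from 1 cell of 66. In duct-like epithelial cells, whose 1509 cells gave 17.9% of all Ccl2 UMIs of the AKT1.MYC library, the highest cell held 95 of 1343 UMIs. The 151 duct-like cells with the most held 75.7% of them. The highest fibroblast held 29 Ccl2 UMIs, and the highest T cell 2. Depth differed too, at medians of 2792 UMIs in T cells against 11945 in duct-like cells. Whether single cells of these gates expressed Ccl2 was not tested. The duct-like gate held 48 NRAS.MYC.ND cells and was not compared. In NRAS.MYC.ND, T cells stood at 5.36 CPM.

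Ccl7 was highest in unsplit phagocytes of AKT1.MYC, at 312 CPM, and in macrophages of NRAS.MYC.ND. In macrophages it stood at 233 CPM (225 to 242) in AKT1.MYC against 329.7 CPM (316 to 343) in NRAS.MYC.ND, a log2 ratio of -0.50 (-0.58 to -0.42). In classical monocytes it stood at 161 CPM in AKT1.MYC against 21.2 CPM in NRAS.MYC.ND, a log2 ratio of 2.92 (2.38 to 3.50). The highest monocyte held 43 of 179 Ccl7 UMIs in AKT1.MYC and 18 of 33 in NRAS.MYC.ND. In Kupffer cells Ccl7 stood at 103 CPM in AKT1.MYC against 27.1 CPM in NRAS.MYC.ND. Ccl7 was therefore spread over the phagocyte gates of AKT1.MYC and concentrated in macrophages of NRAS.MYC.ND, where the next gate, Kupffer cells, was at 27.1 CPM and the intervals of Kupffer cells and monocytes overlapped. AKT1.MYC fibroblasts and pericytes held 94.2 and 90.2 CPM, with overlapping intervals, and neutrophils 48.3 CPM, which overlapped with T cells at 37.4 CPM. NK cells of NRAS.MYC.ND held 0 Ccl7 UMIs in 68 cells.

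Ccl12 was 6.33-fold higher in NRAS.MYC.ND macrophages. It stood at 66.8 CPM (62.5 to 71.4) in AKT1.MYC macrophages, against 423 CPM (408 to 438) in NRAS.MYC.ND macrophages, a log2 ratio of -2.66 (-2.77 to -2.55). In classical monocytes the direction was the other way, with 33.2 CPM in AKT1.MYC against 10.9 CPM in NRAS.MYC.ND, on 37 and 17 UMIs (log2 ratio 1.60, 0.74 to 2.52). The NRAS.MYC.ND value there overlapped with that of B cells, 10.1 CPM. In Kupffer cells Ccl12 stood at 32.7 CPM in AKT1.MYC against 71.0 CPM in NRAS.MYC.ND, a log2 ratio of -1.12. It includes 82 of the 330 NRAS.MYC.ND cells that lay in the same cluster as the macrophages and stood at 209 CPM. The 87 AKT1.MYC cells of cluster 0, the main cluster of that gate, stood at 31.0 CPM against 47.9 CPM in the 244 cells of the main NRAS.MYC.ND cluster, less than 2-fold apart. In both libraries macrophages ranked first without an overlap. In AKT1.MYC the unsplit phagocytes, monocytes, Kupffer cells and neutrophils that followed overlapped in turn, and in NRAS.MYC.ND every gate after Kupffer cells was at 16.5 CPM or less.

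Ccl8 differed most. It stood at 129 CPM (122 to 135) in AKT1.MYC macrophages, against 4170.3 CPM (4123 to 4218) in NRAS.MYC.ND macrophages, a log2 ratio of -5.02 (-5.09 to -4.95) or 32.5-fold. Of all measured genes, 0.139% had a lower ratio in this gate. In Kupffer cells it stood at 47.2 CPM in AKT1.MYC against 388 CPM in NRAS.MYC.ND, a log2 ratio of -3.04. Ccl8 was thus at a high level in the macrophages of 1 library only. The NRAS.MYC.ND Kupffer value was itself uneven, since the same 82 cells stood at 1380.3 CPM, while the 244 cells of the Kupffer cluster stood at 221 CPM. With free RNA subtracted the Kupffer ratio was -5.99. Little was left to form it, since the background taken from 47.2 CPM in AKT1.MYC was 42.3 CPM. That background rests on 10 UMIs in 86 T and B cells, and the ratio has no interval. It is therefore not read as a larger difference.

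Outside macrophages and Kupffer cells, Ccl8 in NRAS.MYC.ND was near a common level. It ranged from 41.5 CPM in NK cells to 85.3 CPM in B cells over lymphocytes, neutrophils, DCs, hepatocyte-lineage cells, endothelial cells and fibroblasts, and neighbours in the order overlapped throughout. Classical monocytes, at 52.7 CPM, lay in that range, so their ratio of -1.79 to AKT1.MYC monocytes, at 15.3 CPM, is between values no higher than those of T cells, 37.4 CPM in AKT1.MYC against 77.6 CPM in NRAS.MYC.ND. Patrolling monocytes stood at 114 CPM, with an interval overlapping B cells. The erythroid gate of 58 cells stood at 321 CPM, with an interval overlapping Kupffer cells, but 129 of its 156 Ccl8 UMIs were in 1 cell. In AKT1.MYC, Ccl8 ranked first in macrophages, and Kupffer cells, neutrophils, T cells, unsplit phagocytes and fibroblasts, at 31.1 to 47.2 CPM, overlapped in turn.

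**Figure D2:**
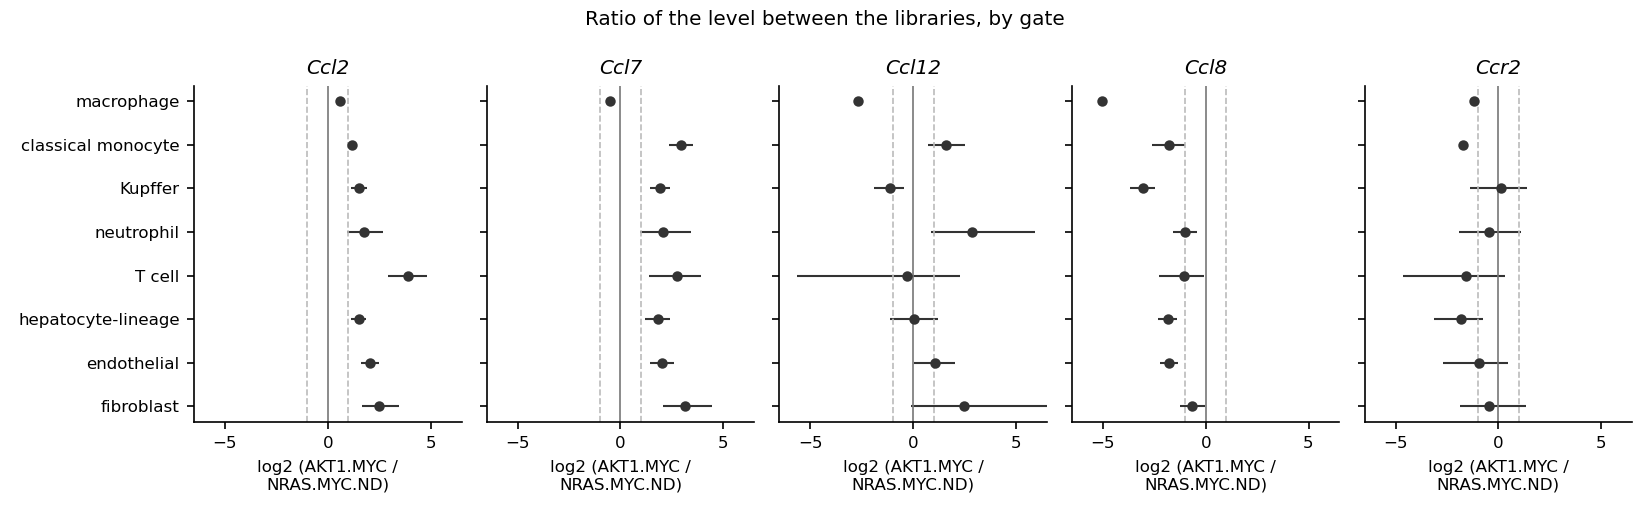
Log2 ratio of AKT1.MYC over NRAS.MYC.ND (horizontal) for each gene in the 8 gates with at least 50 cells in both libraries, with exact 95% counting intervals as bars. The solid line marks no difference and dashed lines 2-fold. Ccl8 lies left of the solid line in all 8 gates, and Ccl7 and Ccl12 lie on opposite sides in macrophages and classical monocytes.

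Ccr2, the receptor, marked classical monocytes in both libraries and was 3.32-fold higher in those of NRAS.MYC.ND. It stood at 235 CPM (207 to 265) in AKT1.MYC monocytes, against 780.3 CPM (737 to 825.5) in NRAS.MYC.ND monocytes, a log2 ratio of -1.73 (-1.93 to -1.54). In macrophages it stood at 46.2 CPM (42.6 to 49.96) in AKT1.MYC against 106 CPM (98.5 to 114) in NRAS.MYC.ND, a log2 ratio of -1.20. Kupffer cells were low in both, at 10.9 CPM in AKT1.MYC against 9.89 CPM in NRAS.MYC.ND, and their ratio of 0.14 (-1.39 to 1.39) left the direction unresolved. In AKT1.MYC the intervals of monocytes and unsplit phagocytes (206 CPM) overlapped, and macrophages followed without overlap. In NRAS.MYC.ND, patrolling monocytes (204 CPM), NK cells (187 CPM) and conventional DCs (166 CPM) followed classical monocytes and overlapped in turn, and macrophages and then T cells, at 27.4 CPM, came after them without overlap. Hepatocyte-lineage cells, which should lack Ccr2, stood at 2.34 CPM in AKT1.MYC against 8.35 CPM in NRAS.MYC.ND, well below both monocyte gates. The intervals of Kupffer cells and hepatocyte-lineage cells overlapped in NRAS.MYC.ND.

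Over the 5 genes in classical monocytes, 3 were 2-fold or more higher in AKT1.MYC, against 12.4% of all measured genes, and 2 were higher in NRAS.MYC.ND, against 13.1%. The 3 were Ccl2, Ccl7 and Ccl12, and the 2 were Ccl8 and Ccr2. Their median ratio was 1.19, against -0.03 over all genes measured. In Kupffer cells 2 genes, Ccl2 and Ccl7, were higher in AKT1.MYC (12.2% of all genes) and 2, Ccl12 and Ccl8, in NRAS.MYC.ND (10.6%), with a median of 0.14 against 0.08. Over all mononuclear phagocytes, Ccl2 was higher in AKT1.MYC (19.7% of all genes) at a ratio of 1.08, which was 0.75 with free RNA subtracted and 0.99 under median of ratios scaling, and Ccl12, Ccl8 and Ccr2 were higher in NRAS.MYC.ND (9.11%), with Ccl7 at a ratio of 0.25 and a median of -1.42 against 0.15. Over all kept cells, 0 genes were higher in AKT1.MYC (17.6% of all genes) and the same 3 in NRAS.MYC.ND (19.9%). The monocyte gate held 232 AKT1.MYC cells and 256 NRAS.MYC.ND cells, at medians of 4617.5 and 5734.5 UMIs.

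Gates outside the phagocytes repeated 1 pattern at low levels, in that Ccl2 and Ccl7 were higher in AKT1.MYC, while Ccl8 leaned to NRAS.MYC.ND. In neutrophils 3 genes were higher in AKT1.MYC (Ccl2, Ccl7 and Ccl12, against 32.1% of all genes) and 1, Ccl8, in NRAS.MYC.ND (8.48%). The Ccl2 level of AKT1.MYC neutrophils, 72.1 CPM, was that of the T and B cells of the library, 72.0 CPM. With free RNA subtracted almost no Ccl2 was left there, so no direction is read from its neutrophil ratio of -6.97. The neutrophil ratio of Ccl7 was then -0.0076, without an interval. There 42.3 CPM, on 10 UMIs in 86 T and B cells, was taken from 48.3 CPM in AKT1.MYC. Neither a direction nor its absence is read from that ratio. In endothelial cells the same 3 (9.83%) and the same 1 (13.2%) passed 2-fold. In fibroblasts the same 3 passed 2-fold toward AKT1.MYC (14.2%), none did toward NRAS.MYC.ND (16.8%), and the Ccl12 interval, on 1 NRAS.MYC.ND UMI, included no difference. In hepatocyte-lineage cells Ccl2 and Ccl7 were higher in AKT1.MYC (15.6%) and Ccl8 and Ccr2 in NRAS.MYC.ND (15.4%). T cells, which should lack the ligands, showed the same, with Ccl2 and Ccl7 higher in AKT1.MYC (13.7%) and Ccl8 and Ccr2 in NRAS.MYC.ND (26%), although the Ccr2 interval, on 2 AKT1.MYC UMIs, included no difference. Ratios of this kind therefore also appeared in cells that should lack the ligands. With free RNA subtracted, fibroblasts kept ratios of 1.22 for Ccl2 and 3.33 for Ccl7, and endothelial and hepatocyte-lineage cells gave no ratio for a ligand, since their ligand levels in AKT1.MYC were below those of its T and B cells.

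Cells of the same gate lay in different clusters in the libraries, so each comparison sets one library's cells against the other's. AKT1.MYC macrophages lay in cluster 1 (2145 cells), cluster 2 (975) and cluster 4 (346), and NRAS.MYC.ND macrophages in cluster 30 (830 of 921). Cluster 2 was shallow, at a median of 638 UMIs for these cells. It was led by mitochondrial ribosomal RNA, passed no marker list, and held 5.39% of the UMIs of the gate. Without it the macrophage ratios of Ccl2, Ccl7, Ccl12, Ccl8 and Ccr2 were 0.65, -0.46, -2.64, -5.04 and -1.13. Ccl8 was lower in each of the 3 AKT1.MYC clusters than in cluster 30, at 173 CPM in cluster 1, 162 CPM in cluster 2 and 30.2 CPM in cluster 4, against 4657 CPM in cluster 30 of NRAS.MYC.ND. Classical monocytes lay in cluster 4 (182 cells) in AKT1.MYC and in cluster 26 (207 cells) in NRAS.MYC.ND, with Ccr2 at 250.4 CPM in the AKT1.MYC cells against 938 CPM in the NRAS.MYC.ND cells. Clustering used all variable genes, and Ccl8 and Ccl12 led the top 10 genes of cluster 30. The leading genes of cluster 4 were Arg1, Prtn3 and the classical monocyte marker Chil3, with Mmp12 and Gpnmb also among its top 10. Those of cluster 26 were Gm9733 and Ly6i, with Ccr2 itself and the classical monocyte markers Ly6c2, Plac8 and Ms4a4c among its top 10.

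The scoring rule of the gates was revised several times on these data, and the score that separates Kupffer cells from macrophages was set with levels of the 5 genes in view. At a Kupffer score of 0.5 in place of 0.6, the macrophage ratios of Ccl2, Ccl7, Ccl12, Ccl8 and Ccr2 were 0.56, -0.55, -2.71, -5.07 and -1.23. With Kupffer cells taken by their highest score instead, they were 0.73, -0.35, -2.55, -4.89 and -1.03. That rule left 31 AKT1.MYC and 139 NRAS.MYC.ND Kupffer cells, with Ccl8 at 20.9 CPM in AKT1.MYC against 189 CPM in NRAS.MYC.ND and the Ccl2 ratio at 0.98, under 2-fold.

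Markers of other cell types in these gates also differed. In macrophages the 10 neutrophil markers summed to 573 CPM in AKT1.MYC (all 10 seen) against 222 CPM in NRAS.MYC.ND (9 seen, Ly6g at 0). The 8 classical monocyte markers summed to 1145 CPM in AKT1.MYC against 361 CPM in NRAS.MYC.ND, and the 8 Kupffer markers to 346 CPM in AKT1.MYC against 1518 CPM in NRAS.MYC.ND, all of them seen. In classical monocytes the neutrophil markers summed to 2337 CPM in AKT1.MYC against 359 CPM in NRAS.MYC.ND (9 of 10 seen in each, Ly6g at 0 in both), and the 10 macrophage markers to 3243 CPM in AKT1.MYC against 1392 CPM in NRAS.MYC.ND. The 10 duct-like epithelial markers summed to 398 CPM in AKT1.MYC against 8.60 CPM in NRAS.MYC.ND macrophages (all seen in both), and to 323 CPM in AKT1.MYC against 14.8 CPM in NRAS.MYC.ND monocytes (all 10 against 7 seen). The 10 T cell markers went the other way, at 11.5 CPM in AKT1.MYC against 76.7 CPM in NRAS.MYC.ND macrophages. The part of these cells in the ratios above was not tested.

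Shares of cells with a UMI were compared after thinning each cell to 1000 UMIs, which left out 2476 AKT1.MYC cells and 300 NRAS.MYC.ND cells. Of macrophages it left out 1506 of 4153 in AKT1.MYC against 54 of 921 in NRAS.MYC.ND, so thinned shares cover the deeper cells. In macrophages Ccl8 was seen in 8.24% of AKT1.MYC cells against 41.3% of NRAS.MYC.ND cells (14.9% against 64.7% not thinned), and in T cells in 2.99% against 7.83% (10.96% against 21.4% not thinned, at median depths of 2792 and 2848 UMIs). Ccl12 was seen in 4.65% of AKT1.MYC macrophages against 18.7% of NRAS.MYC.ND macrophages (8.89% against 39.7% not thinned), with 0 of 67 AKT1.MYC T cells, which allows up to 5.36%, and 0.659% of NRAS.MYC.ND T cells. Ccl2 was seen in 19.1% of AKT1.MYC macrophages against 10.5% of NRAS.MYC.ND macrophages (29.1% against 28.2% not thinned), with 7.46% of AKT1.MYC and 0.512% of NRAS.MYC.ND T cells. The Ccl2 shares were close before thinning, and at equal depth the AKT1.MYC share (17.6% to 20.7%) lay above that of NRAS.MYC.ND (8.54% to 12.7%). Ccl7 was seen in 13.5% of AKT1.MYC macrophages against 12.2% of NRAS.MYC.ND macrophages (19.5% against 23.6% not thinned), with 2.99% of AKT1.MYC and 0.586% of NRAS.MYC.ND T cells. For Ccl7 the thinned intervals, 12.2% to 14.9% in AKT1.MYC and 10.1% to 14.6% in NRAS.MYC.ND, overlapped. Its CPM differed by less than 2-fold, and no order is read from either. Ccr2 was seen in 21.8% of AKT1.MYC monocytes against 51.0% of NRAS.MYC.ND monocytes (51.7% against 87.5% not thinned), and in 0 of 246 AKT1.MYC hepatocyte-lineage cells, which allows up to 1.49%, against 0.806% in NRAS.MYC.ND.

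**Figure D3:**
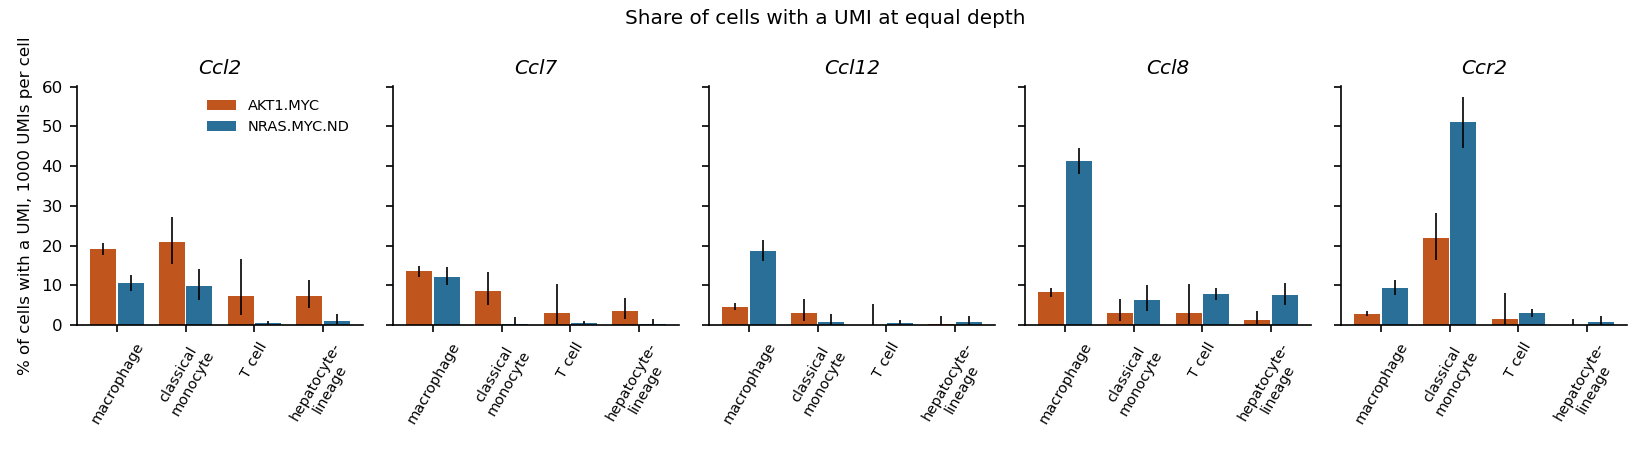
Percent of cells with at least 1 UMI of each gene (vertical) when every cell was thinned to 1000 UMIs, in macrophages, classical monocytes, T cells and hepatocyte-lineage cells of AKT1.MYC (left bar) and NRAS.MYC.ND (right bar). Lines are exact Clopper-Pearson 95% intervals. Ccr2 reaches 51.0% in NRAS.MYC.ND classical monocytes and Ccl8 41.3% in NRAS.MYC.ND macrophages.

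Most UMIs of the ligands were held by phagocytes, and more so in NRAS.MYC.ND. Of the UMIs of all genes, phagocytes held 25.5% in AKT1.MYC against 34.9% in NRAS.MYC.ND, so the base of these shares also differed. Mononuclear phagocytes held 64.9% of Ccl2 UMIs in AKT1.MYC against 81.9% in NRAS.MYC.ND, and 72.5% against 94.0% of Ccl7 UMIs. They held 78.5% of Ccl12 UMIs in AKT1.MYC against 96.97% in NRAS.MYC.ND, and 70.4% against 95.01% of Ccl8 UMIs. Macrophages alone held 89.99% of Ccl8 UMIs in NRAS.MYC.ND while they were 16.3% of its kept cells. The receptor went the other way, with 82.3% of Ccr2 UMIs in phagocytes in AKT1.MYC against 71.8% in NRAS.MYC.ND. Macrophages gave 51.8% of AKT1.MYC Ccr2 UMIs against 24.3% of NRAS.MYC.ND Ccr2 UMIs, and classical monocytes 22.2% against 38.7%. Of kept cells, macrophages were 44.2% in AKT1.MYC against 16.3% in NRAS.MYC.ND, and classical monocytes 2.47% against 4.52%. Conventional DCs gave a further 9.33% of Ccr2 UMIs in NRAS.MYC.ND, and ungated cells 9.81%.

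**Figure D4:**
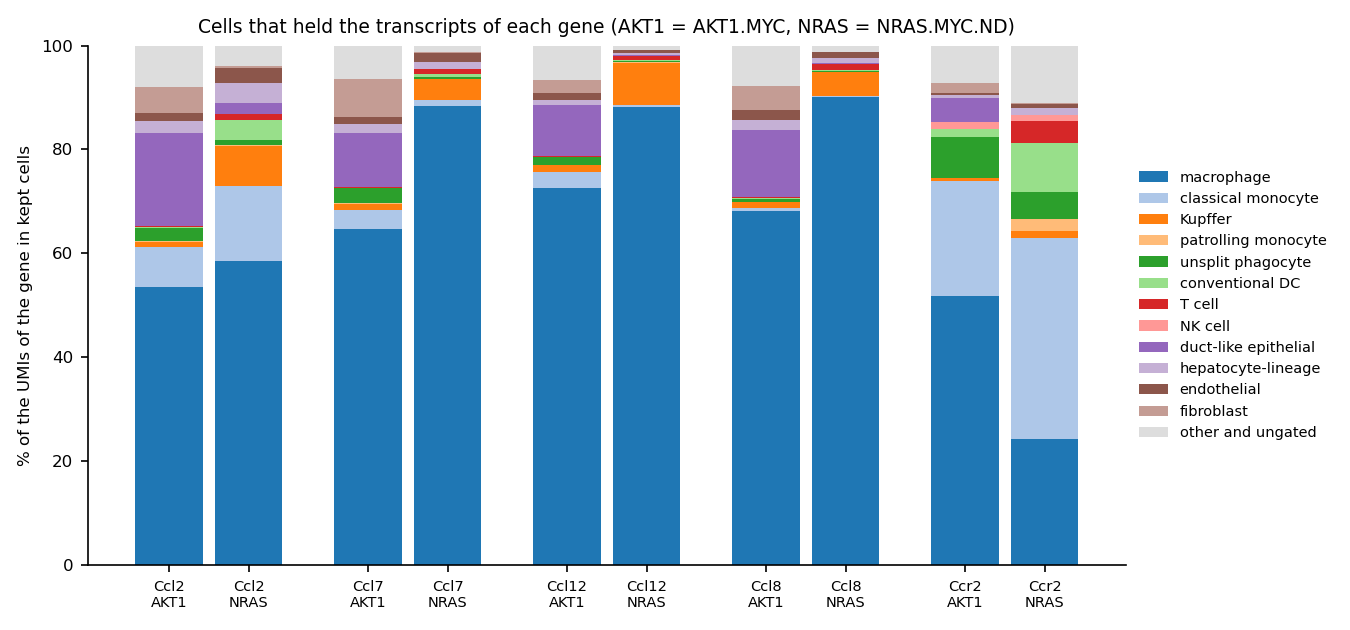
Share of the UMIs of each gene in kept cells (vertical, percent) by the gate of the cell, with AKT1.MYC left of NRAS.MYC.ND for each gene. Macrophages are the largest part of every ligand bar, and classical monocytes are the largest part of the NRAS.MYC.ND Ccr2 bar, at 38.7%.

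The mix of ligand UMIs in macrophages differed as well. In AKT1.MYC macrophages Ccl2 was 41.4%, Ccl7 31.9%, Ccl8 17.6% and Ccl12 9.13% of the UMIs of the 4 ligands, which summed to 731 CPM. In NRAS.MYC.ND macrophages Ccl8 was 81.4%, Ccl12 8.26%, Ccl7 6.44% and Ccl2 3.87%, and the sum was 5121 CPM. In classical monocytes Ccl2 was 71.2% in AKT1.MYC against 72.7% in NRAS.MYC.ND, the largest part in both. Of the sum of Ccl12 and Ccl8 UMIs, Ccl12 was 34.2% (32.4 to 36.1) in AKT1.MYC macrophages against 9.21% (8.90 to 9.53) in NRAS.MYC.ND macrophages.

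UMIs of all 4 ligands were unevenly spread over macrophages. The highest AKT1.MYC macrophage held 148 of the 1704 Ccl8 UMIs of its gate, against 1160 of 30057 in the highest NRAS.MYC.ND macrophage. The 93 NRAS.MYC.ND macrophages with the most Ccl8, of 921, held 74.3% of its UMIs there. The same share was 76.7% for Ccl12, 80.3% for Ccl2 and 88.7% for Ccl7. These 3 had fewer UMIs than Ccl8 and were seen in fewer cells. The share depends on this, so the ligands are not ranked by it. The highest cell for Ccl7 held 252 of its 2376 UMIs, which bears on the Ccl7 level of that gate. The matching Ccl8 share is not given for AKT1.MYC, where only 14.9% of macrophages held any Ccl8 UMI. For Ccr2 in classical monocytes, the 24 highest AKT1.MYC cells held 45.8% and the median cell 1 UMI, against 26.5% in the 26 highest NRAS.MYC.ND cells and a median of 4 UMIs. At 1000 UMIs per cell, 64.5% of AKT1.MYC macrophages against 49.0% of NRAS.MYC.ND macrophages had no UMI of any ligand, and 7.06% against 15.7% had exactly 2 ligands.

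Ccl7 was more frequent in macrophages that also held Ccl2. In thinned macrophages of AKT1.MYC, Ccl7 was seen in 26.3% (22.5 to 30.4) of cells with Ccl2 and 10.5% (9.24 to 11.9) of cells without it, and in those of NRAS.MYC.ND in 44.0% (33.6 to 54.8) and 8.51% (6.64 to 10.7). Ccl8 was seen in 13.01% (7.62 to 20.3) of AKT1.MYC macrophages with Ccl12 and 8.00% (6.97 to 9.13) of those without it, which overlap, and in 74.1% (66.6 to 80.6) of NRAS.MYC.ND macrophages with Ccl12 and 33.8% (30.3 to 37.4) of those without it. Ccr2 was less frequent beside Ccl8 in NRAS.MYC.ND, in 4.19% (2.36 to 6.82) of macrophages with Ccl8 and 12.97% (10.2 to 16.2) of those without it, and in AKT1.MYC the shares of 0.917% (0.111 to 3.27) and 3.01% (2.36 to 3.76) overlapped. Within the NRAS.MYC.ND macrophage gate, the 53 cells of cluster 26 stood at 749 CPM of Ccr2 and 80.8 CPM of Ccl8, and the 830 cells of cluster 30 at 73.0 CPM of Ccr2. These shares describe cells of 1 library each.

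Along the difference of the classical monocyte and macrophage scores of each phagocyte, Ccr2 was higher and Ccl8 lower on the monocyte side than on the macrophage side in both libraries. Over 6 bins from macrophage to monocyte, Ccr2 went through 24.9, 42.4, 77.0, 132, 253 and 207 CPM in AKT1.MYC and 55.7, 176, 369, 732, 692 and 795 CPM in NRAS.MYC.ND. Ccl8 went through 153, 139, 80.6, 34.4, 20.6 and 10.1 CPM in AKT1.MYC and 4327, 5542, 776, 89.4, 59.8 and 48.2 CPM in NRAS.MYC.ND. Ccr2 was higher in NRAS.MYC.ND in each of the 6 bins, and so was Ccl8. From bin 4 to bin 6, though, Ccl8 was near or below the level of T and B cells in each library. That level was 42.3 CPM in AKT1.MYC against 78.5 CPM in NRAS.MYC.ND, so no Ccl8 difference above free RNA is read from those bins. Ccl2 stood at 264 CPM in the first and 592 CPM in the last bin of AKT1.MYC and followed no single direction in NRAS.MYC.ND. Bin limits are a choice, 32.7% of AKT1.MYC cells and 17.6% of NRAS.MYC.ND cells lay within 0.05 of an inner edge, and bin 3 held 47 NRAS.MYC.ND cells. The scores contain no member, but the bins are ranges and not cell types.

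**Figure D5:**
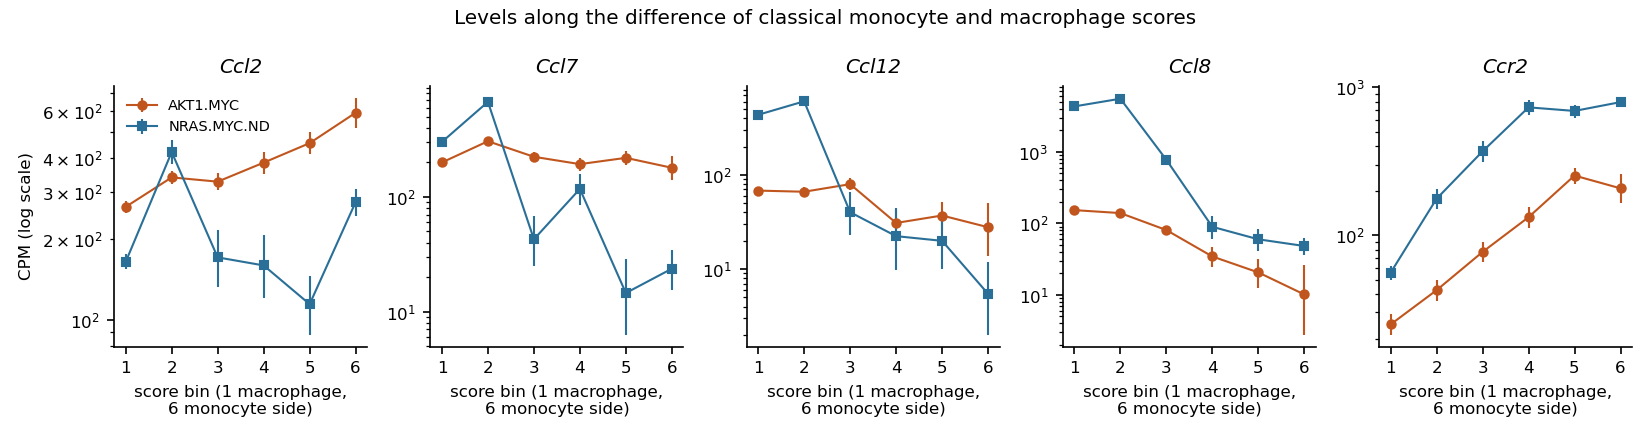
Level of each gene in CPM (vertical, log axis) in 6 bins of the classical monocyte score minus the macrophage score, from macrophage (left) to monocyte (right), with AKT1.MYC circles and NRAS.MYC.ND squares and exact Poisson 95% intervals. Ccr2 is higher and Ccl8 lower at the right than at the left in both libraries, with Ccl8 of NRAS.MYC.ND at 5542 CPM in the second bin.

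Genes most like each member were found by Pearson correlation of log2 CPM, with 10 CPM added, over 24 gate and library combinations of at least 50 cells among 6977 genes. The combinations share libraries and free RNA, so the values are a description. Ccl2 was most like F13a1 (0.85), Ccl9 (0.85) and Ms4a6d (0.83), and Ccl7 most like Pf4 (0.89), Ms4a7 (0.87) and Trem2 (0.86). Ccl12 was most like Ms4a7 (0.88), C1qc (0.85) and Adgre1 (0.84), and Ccr2 most like Lat2 (0.84), Ciao2a (0.83) and Ms4a4c (0.83). Ccl8 had weaker matches, with Clec4b1, Calhm6 and Hpgds all at 0.69 and all highest in NRAS.MYC.ND macrophages. F13a1, Ms4a7, Trem2, C1qc, Adgre1 and Ms4a4c were gate markers. Among the members, Ccl2 and Ccl7 correlated at 0.89, Ccl12 and Ccl8 at 0.74, and Ccl2 and Ccl8 at -0.07.

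Other genes of the pathway were taken from 5 lists. In macrophages, where 20.9% of all measured genes passed 2-fold toward AKT1.MYC and 7.71% toward NRAS.MYC.ND, of 7 other inflammatory CC chemokines 6 were measured, with 1 higher in AKT1.MYC, 1 higher in NRAS.MYC.ND and a median of 0.29. Ccl5, a T cell attractant, stood at 48.6 CPM in AKT1.MYC against 404 CPM in NRAS.MYC.ND. Ccl5 also stood at 32027 CPM in NRAS.MYC.ND T cells and at 11.4 CPM in AKT1.MYC against 348 CPM in NRAS.MYC.ND hepatocyte-lineage cells, and the part of free RNA in its ratio was not tested. Of 8 other monocyte chemokine receptors, none was higher in AKT1.MYC, 4 were higher in NRAS.MYC.ND, and the median was -0.75. The eotaxin receptor Ccr3 led them at 0.83 CPM in AKT1.MYC against 32.9 CPM in NRAS.MYC.ND, a log2 ratio of -5.31 on 11 and 237 UMIs.

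Of 11 monocyte entry and survival factors, 4 were higher in AKT1.MYC macrophages and 2 in NRAS.MYC.ND macrophages, with a median of -0.49, beside the same 20.9% and 7.71% of all genes. Cx3cl1, the ligand of CX3CR1, had 55 UMIs in AKT1.MYC against 1 in NRAS.MYC.ND (log2 ratio 4.90, 2.36 to 10.2). Its AKT1.MYC level of 4.15 CPM in macrophages was near the 4.97 CPM of hepatocyte-lineage cells and far under the 127 CPM of fibroblasts, and the part of free RNA in its ratio was not tested. Of 10 inducers of the ligands 9 were measured, with 2 higher in each library and a median of 0.23, which is the same with Il6 at its bound. The interferon regulatory factor Irf7 stood at 86.6 CPM in AKT1.MYC against 358 CPM in NRAS.MYC.ND. Il6, an inflammatory cytokine, had 30 UMIs in AKT1.MYC against 0 in NRAS.MYC.ND, at least 5.44-fold higher against a floor of 3 UMIs per library, and it stood at 11.9 CPM in AKT1.MYC fibroblasts against 2.26 CPM in those macrophages. Of 5 decoy, scavenging and adaptor partners 2 were measured, and 1 of them, the chemerin-binding receptor Ccrl2, named after its values were seen, was higher in AKT1.MYC (468 CPM against 181 CPM in NRAS.MYC.ND).

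In classical monocytes 12.4% of all measured genes passed 2-fold toward AKT1.MYC and 13.1% toward NRAS.MYC.ND. Of 9 measured inducers 1 was higher in AKT1.MYC, against 6 in NRAS.MYC.ND, with a median of -1.42, which is the same with Ifnb1 at its bound. Of the 6, Ifng, named after its values were seen, had 1 UMI in AKT1.MYC against 9 in NRAS.MYC.ND and an interval (-8.14 to 0.16) that included no difference. The NF-kappaB subunit gene Nfkb1 stood at 37.7 CPM in AKT1.MYC against 156 CPM in NRAS.MYC.ND. Ifnb1, encoding interferon beta, had 0 UMIs in AKT1.MYC against 16 in NRAS.MYC.ND, a fold of at least 3.82 in favour of NRAS.MYC.ND against the same floor. Of 6 measured CC chemokines 2 were higher in AKT1.MYC, against 1 in NRAS.MYC.ND, with a median of 0.48. The eosinophil attractant Ccl24 stood at 248 CPM in AKT1.MYC against 6.43 CPM in NRAS.MYC.ND (log2 ratio 5.27), and Ccl5 at 39.5 CPM in AKT1.MYC against 434.5 CPM in NRAS.MYC.ND. Of 7 measured receptors 3 were higher in AKT1.MYC, among them Fpr1, named after its values were seen, on 15 UMIs in AKT1.MYC against 9 in NRAS.MYC.ND with an interval that included no difference, and 1 was higher in NRAS.MYC.ND. That 1 was Cx3cr1, a gate marker, at 30.5 CPM in AKT1.MYC against 124 CPM in NRAS.MYC.ND. Of 9 entry and survival factors 1 was higher in AKT1.MYC, against 3 in NRAS.MYC.ND, with a median of -0.78. Ackr1, the atypical receptor that holds chemokines on vessel walls, stood at 2.28 CPM in AKT1.MYC against 16.7 CPM in NRAS.MYC.ND endothelial cells.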

How the data were processed

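Deposited raw UMI counts per gene and barcode were used for both libraries; per the labels' protocols they came from 10x Chromium 3′ v2 chemistry, and Cell Ranger is named as version 6.1.1 in the file header and 6.1.2 in the submitters' processing notes, with mm10. Which annotation was used is not stated there, but all 55450 gene identifiers occur in GENCODE vM21. The members and lists were chosen with earlier results of these data known.

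Barcodes needed 500 or more UMIs, 250 or more genes and no more than 20% mitochondrial UMIs. The automatic threshold of Scrublet marked 0% of cells, so the highest scores at 0.8% per 1000 barcodes, ties included, were removed, 912 AKT1.MYC and 300 NRAS.MYC.ND cells. From 166 markers in 19 lists, each log-scaled and capped at 1 against its 30th highest cell of at least 2000 UMIs, a type's score was the mean of its 3 highest. A cell went to the highest type by 0.05 with at least 3 markers seen, and phagocytes were then split, Kupffer at a score of 0.6. The marker lists were not changed, but the scoring rule was revised in several versions after seeing the data, a first one having put neutrophils among macrophages and lost DCs, and the Kupffer score was set with levels of the members by cluster in view. Gates of at least 50 cells per library were compared, on UMIs summed per gate. Genes with at least 10 UMIs counted as measured. Poisson, conditional binomial and Clopper-Pearson 95% intervals were used.

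Named were the members, up to 6 list genes per gate by size of ratio of at least 2-fold with an interval excluding 1, and the 3 most alike genes; Ccrl2 in macrophages and Ifng and Fpr1 in monocytes were added after their values were seen. Some results on list genes are not reported here, though the counts and medians of the lists include those genes. The ratio step was tested on simulated Poisson counts. Python 3.11.15, scipy 1.17.1 and Scanpy 1.11.5 were used. Alternatives covered the mitochondrial and depth limits, doublets, gate, clusters, scaling, weighting, thinning, free RNA and, added after seeing the data, leaving out shallow cells and 2 other Kupffer rules.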

Additional observations from a re-analysis of the deposited data

Results flagged for a closer look

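The CPM ratios of Ccl7 and Ccl12 had opposite signs in different phagocyte gates, with intervals on opposite sides of 0. For Ccl7 in macrophages the ratio was under 2-fold. The intervals of its thinned shares of cells, 13.5% in AKT1.MYC against 12.2% in NRAS.MYC.ND, overlapped, so no order is read there. For Ccl7 in monocytes, 43 of 179 AKT1.MYC UMIs and 18 of 33 NRAS.MYC.ND UMIs were in 1 cell each. For Ccl12 the monocyte ratio rests on 37 AKT1.MYC and 17 NRAS.MYC.ND UMIs, of which 7 and 10 were in 1 cell each. The NRAS.MYC.ND level there, 10.9 CPM, was near that of its B cells, 10.1 CPM. For Ccl7 the log2 ratio in macrophages minus that in classical monocytes was -3.42, and minus that in Kupffer cells -2.43. For Ccl12 the ratio in macrophages minus that in classical monocytes was -4.27, and in classical monocytes minus Kupffer cells 2.72. With 1 library per group the differences were not tested.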

How the results depend on the processing

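No paired analysis was possible because each group had 1 library. The 10 log2 ratios in macrophages and classical monocytes kept their direction under every alternative that gave a value; Ccl8 in monocytes gave none with free RNA subtracted. Those past 2-fold stayed past it, except Ccl2 in monocytes at 0.81 with equal weight per cell. In macrophages, Ccl2 moved to 0.51 under median of ratios scaling, 0.52 with equal weight, 0.75 thinned and 0.26 with free RNA subtracted, and Ccl7 to -0.32 in Leiden classes, -0.60, -0.67, -0.61 and -0.76 in the same order. Ccl12 moved to -2.49 in Leiden classes and -2.84 with free RNA subtracted. Ccl8 moved to -4.72 in Leiden classes, -5.12 scaled, -4.63 with equal weight, -4.70 thinned and -5.57 with free RNA subtracted. Ccr2 moved to -1.94 with equal weight and -1.74 thinned. In monocytes, thinned Ccl7 was 5.37, on 1 NRAS.MYC.ND cell, and Ccr2 in Leiden classes -2.37. With free RNA subtracted, the neutrophil ratio of Ccl7 was -0.0076, with 42.3 CPM taken from 48.3 CPM in AKT1.MYC, and is not read. That of Ccl2 was -6.97, but 72.0 CPM was taken from 72.1 CPM in AKT1.MYC, so no direction is read from it.

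With Leiden classes the phagocyte share of UMIs was, AKT1.MYC then NRAS.MYC.ND, 57.0% and 79.2% for Ccl2, 65.4% and 92.9% for Ccl7, 69.5% and 95.5% for Ccl12, 60.6% and 94.6% for Ccl8 (93.3% in NRAS.MYC.ND with doublets kept) and 71.0% and 67.3% for Ccr2. Not thinned, the share of phagocytes with a UMI was 29.9% and 26.2% for Ccl2, 19.4% and 16.4% for Ccl7, 8.79% and 28.9% for Ccl12, 14.5% and 54.6% for Ccl8 and 10.4% and 34.7% for Ccr2. Of pathway genes higher in AKT1.MYC monocytes, 8 at 10 UMIs became 5 at 30. With Kupffer cells taken by their highest score, a rule added after seeing the data, the macrophage ratios moved to 0.73, -0.35, -2.55, -4.89 and -1.03 for Ccl2, Ccl7, Ccl12, Ccl8 and Ccr2. Of 346 values for other gates, 284 stayed within the counting interval. The median ratio that median of ratios scaling takes off every ratio was 0.16 in Kupffer cells, 0.18 in hepatocyte-lineage cells, 0.13 in neutrophils, 0.10 in macrophages and T cells and -0.26 in fibroblasts. Where a value moved, the cause was not tested.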
